A study of Mus musculus with 8 samples.

Results

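Both arms of the miR-21a hairpin, mmu-miR-21a-5p and mmu-miR-21a-3p, were followed over 8 small RNA libraries of mouse cell lines. They are 2 of the 1978 mature miRNAs listed in the deposited tables. They were chosen by abundance, because miR-21a-5p had more reads than any other miRNA in each of the 6 libraries of C2C12 cells, and its hairpin partner was taken with it. The shares and ranks of miR-21a-5p are therefore given as a description, with no test.

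C2C12 is a line of mouse skeletal myoblasts that fuse into myotubes when serum is reduced. Stable C2C12 lines carried a lentiviral hairpin RNA against Perk (shPerk), a kinase that senses protein folding stress in the endoplasmic reticulum, or a control hairpin (shNC), after selection with puromycin, and both lines were sequenced before the switch to differentiation medium (day 0) and on day 3 after it. Other C2C12 cells carried an empty vector or a vector with the EF1α promoter that expresses ATF4, a transcription factor downstream of PERK, and were kept in growth medium. P19, a mouse embryonal carcinoma line, carried shNC or shPerk, and its day and state of induction are not given in the labels. There was 1 library per group, so the spread between replicates is unknown for every comparison, and Perk and Atf4 mRNA are not measured by small RNA libraries. The 4 libraries of C2C12 shNC and shPerk cells were deposited as read counts, with 8800977 to 11993448 reads on miRNAs, and the other 4 as reads-per-million (RPM) of unknown depth. Counts were converted to counts-per-million (CPM) for levels. Intervals below cover counting error only and are given for the count libraries alone.

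A miRNA hairpin is cut by Drosha and then by Dicer into a short duplex, of which the guide strand is loaded into Argonaute and the passenger strand is mostly degraded. The guide pairs with target mRNAs through its seed, bases 2 to 8 from its 5′ end. miR-21 is abundant in many cultured and proliferating cells, is transcribed under the control of AP-1 and STAT3, and represses mRNAs such as Pdcd4. SMAD proteins have been described as promoting the processing of its primary transcript.

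In the RefSeq sequences of GRCm38.p6, the guide arm lies at chr11:86584120-86584141 and the passenger arm at chr11:86584082-86584103, both on the minus strand and both 22 bases long. The hairpin of 92 bases lies on chromosome 11 from 86584067 to 86584158. In the GENCODE annotation of GRCm38 this stretch is inside the last exon of Vmp1 (transcript Vmp1-201, exon from 86583865 to 86585451, same strand) and inside its 3′ UTR, from 86583865 to 86585310. The arms and both miRNAs that share the stem name are shown to place the members and the reads that could be mistaken for theirs, with the seed in capitals.
miR-21a-5p: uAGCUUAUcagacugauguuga
miR-21a-3p: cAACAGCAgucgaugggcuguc
miR-21b: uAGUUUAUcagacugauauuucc
miR-21c: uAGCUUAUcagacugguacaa

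The arms have different seeds. miR-21b, from chromosome 3 (29636768 to 29636790, plus strand), differs from the guide arm by C4U, G18A, G21U and A22C, with the base of miR-21a-5p first and positions counted from 1 at the 5′ end. The first of these falls in the seed, and miR-21b is 23 bases long, against 22 for the guide arm. miR-21c, from chromosome 8 (128278188 to 128278208, minus strand), differs by A16G, G18A, U19C, U20A and G21A over its 21 bases and keeps the seed of the guide arm. miR-21b had 113 reads in shNC day 0, 126 in shPerk day 0, 168 in shNC day 3 and 218 in shPerk day 3, and 5.95 RPM with vector and 3.45 RPM with ATF4. miR-21c had 44, 51, 61 and 65 reads in the same order of libraries, and 5.29 and 2.63 RPM. Both were thus rare beside the guide arm, at most 109 for miR-21b and 32.6 for miR-21c when expressed per-million of the reads of miR-21a-5p. How reads that match several miRNAs were assigned is not given in the sources used here, so these low values are uncertain. None of the other miRNAs had the same counts as either member (0 for both).

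miR-21a-5p took between 18.0% and 26.2% of the miRNA reads of a C2C12 library, with a median of 21.1% over 6 libraries. It had 2971129 of 11321915 reads in shNC day 0, a share of 26.2%. It had 1944882 of 8800977 reads in shPerk day 0, or 22.1%. It had 2159642 of 11993448 reads in shNC day 3, or 18.0%. The control cells therefore held both the highest and the lowest share among the C2C12 libraries. In shPerk day 3 it had 1992552 of 9428246 reads, or 21.1%. It stood at 210282 RPM with vector (21.0%) and at 196806 RPM with ATF4 (19.7%). The highest C2C12 level (CPM or RPM) was 1.46-fold the lowest. At these depths the 95% Clopper-Pearson intervals of the 4 count libraries did not overlap, the widest running from 22.07% to 22.13% in shPerk day 0.

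The miRNA next below it changed with the state of the cells. let-7c-5p, of a family known to accumulate as cells differentiate, was next in shNC day 0 with 580935 reads (5.13%), in shPerk day 0 with 541862 reads (6.16%), with vector at 57836 RPM and with ATF4 at 61784 RPM. In shNC day 3 it was miR-206-3p, a miRNA specific to skeletal muscle, with 802676 reads (6.69%). In shPerk day 3 it was miR-26a-5p with 817501 reads (8.67%). miR-21a-5p exceeded the next miRNA 5.11-fold in shNC day 0, 3.59-fold in shPerk day 0, 2.69-fold in shNC day 3 and 2.44-fold in shPerk day 3, and 3.64-fold with vector and 3.19-fold with ATF4. Its lead was thus smallest in both day 3 libraries. Only 6 to 8 miRNAs made up 50% of the reads of a C2C12 library.

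In P19 cells miR-21a-5p was a minor species. It stood at 5301 RPM in shNC (0.530%, rank 47) and at 5024 RPM in shPerk (0.502%, rank 31). The first rank there belonged to miR-302b-3p, of a cluster known from pluripotent cells, at 76522 RPM in shNC and 180818 RPM in shPerk. The lowest C2C12 level was 34.0-fold the highest P19 level, in CPM or RPM and from tables scaled separately.

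**Figure D1:**
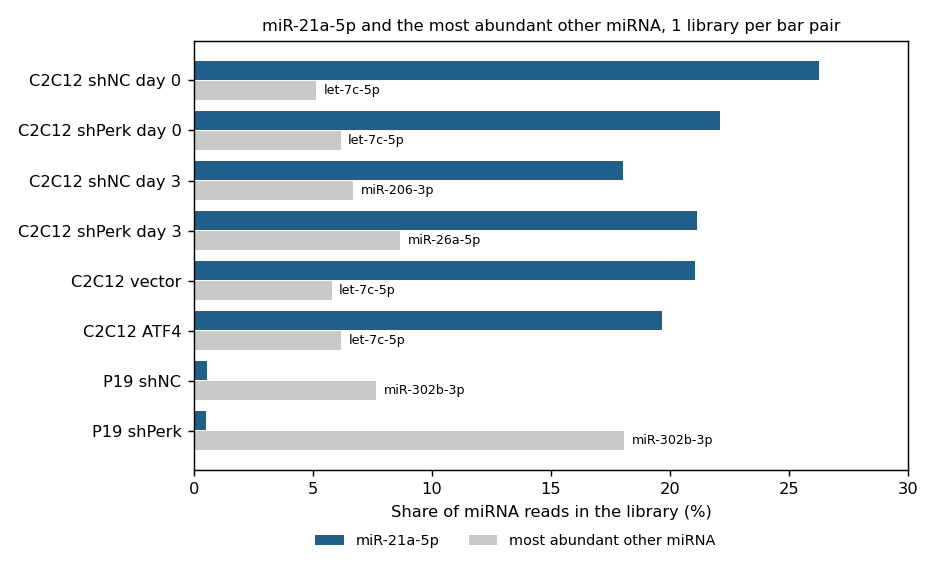
Share of miRNA reads (x axis, %) of miR-21a-5p and of the most abundant other miRNA in each of the 8 libraries, 1 library per pair of bars. miR-21a-5p lies between 18.0% and 26.2% in the 6 C2C12 libraries and at 0.530% and 0.502% in the P19 libraries, where miR-302b-3p is first.

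The pluripotency and muscle marker miRNAs went with the labelled lines. The summed level of 11 miRNAs known from pluripotent cells was 217778 RPM in P19 shNC and 456092 RPM in P19 shPerk, while in the C2C12 count libraries it was at most 0.707 CPM and none was listed in the ATF4 table. The 6 muscle marker miRNAs summed to 19171 CPM in shNC day 0, 3845 in shPerk day 0, 88540 in shNC day 3 and 24348 in shPerk day 3, and to 2467 RPM with vector and 3793 RPM with ATF4. The summed level of this group was thus higher on day 3 than on day 0 in both lines. It was lower in shPerk than in shNC on the same day, though shPerk day 3 lay above shNC day 0. With vector it was much lower than in shNC day 0. Neural markers (3 miRNAs) were at 2774 CPM in shPerk day 0 and 4195 in shPerk day 3, against 185 and 580 in the shNC libraries, with the neuronal miR-124-3p at 0 in all 4. Haematopoietic markers (5 miRNAs) were at 351 and 122 CPM in the shPerk libraries, against 11.7 and 10.6 in shNC, and miR-223-3p was at 0 in all of these but shPerk day 3. The epithelial and endothelial sets did not exceed 92.3 CPM or RPM in any C2C12 library. In P19 shNC and shPerk the epithelial set was at 450 and 1474 RPM and the endothelial set at 1244 and 1922 RPM. The muscle set was at 51.9 and 113 RPM there, and the haematopoietic set at 37.65 and 37.48 RPM. The neural set was at 3685 and 1518 RPM in P19 cells, so this set did not separate the lines. The part of these differences between the cell lines in the changes of miR-21a was not tested.

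miR-21a-3p was a rare species with a wider spread than the guide arm. It had 1093 reads in shNC day 0, or 96.5 CPM (interval 90.9 to 102). It had 675 reads in shPerk day 0, or 76.7 CPM (71.0 to 82.7). The next lower level was in shNC day 3, with 568 reads or 47.4 CPM (43.5 to 51.4). The lowest was in shPerk day 3, with 199 reads or 21.1 CPM (18.3 to 24.3). These intervals do not overlap, so the order of the 4 count libraries is outside counting error. It stood at 98.8 RPM with vector and 49.5 RPM with ATF4. The highest C2C12 level was 4.68-fold the lowest, and the rank of miR-21a-3p ran from 184 with vector to 272 in shPerk day 3. It was not listed in the P19 table, which gives no value for it there.

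The ratio of the arms within a library does not depend on how libraries are scaled to each other. There were 2718 reads of the guide arm per read of the passenger arm in shNC day 0 (interval 2562 to 2887). There were 2881 in shPerk day 0 (2672 to 3112). There were 3802 in shNC day 3 (3502 to 4135). The ratio was 10013 in shPerk day 3 (8714 to 11564), above that of the other 5 C2C12 libraries. It was 2129 with vector and 3977 with ATF4. The shNC and shPerk intervals overlapped on day 0 and were separate on day 3. The passenger arm made up from 0.00999% of the reads of both arms, in shPerk day 3, to 0.0469%, with vector.

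**Figure D2:**
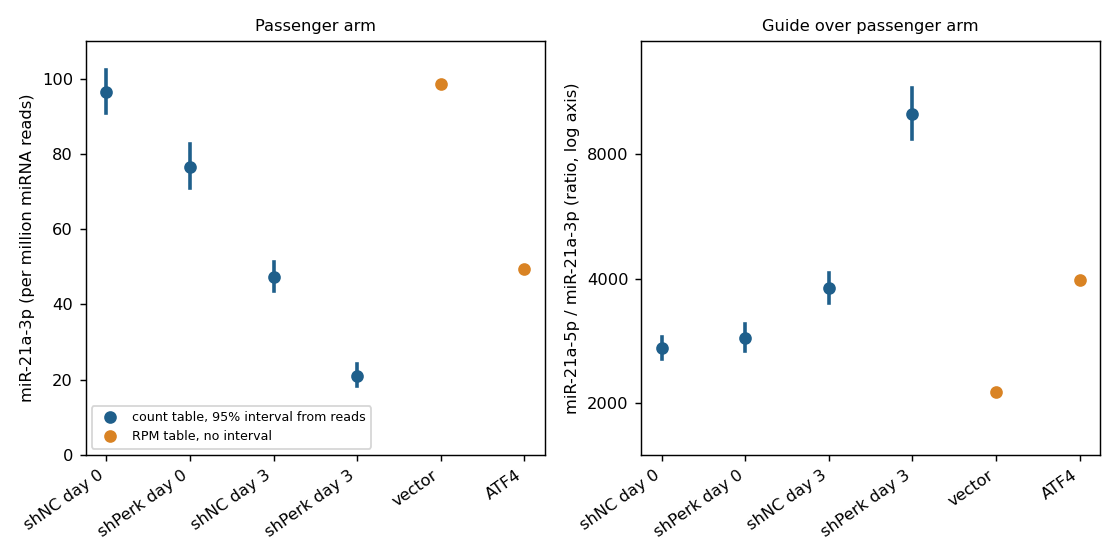
Level of miR-21a-3p in CPM or RPM (left) and ratio of miR-21a-5p to miR-21a-3p on a log axis (right) in the 6 C2C12 libraries, 1 point per library, with lines for the 95% counting interval in the count libraries. The passenger arm is lowest, at 21.1 CPM, and the ratio highest, at 10013, in shPerk day 3.

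Among hairpins whose arms were both above 0 and averaged 10 CPM or RPM or more, miR-21a was one of the most asymmetric. Its log2 ratio of 5p to 3p was 11.41 in shNC day 0, 11.49 in shPerk day 0, 11.89 in shNC day 3, 13.29 in shPerk day 3, 11.06 with vector and 11.96 with ATF4. The median size of the log2 ratio over 129 to 152 hairpins lay between 3.83 and 5.09. Hairpins with an arm at 0 gave no ratio and were left out. Thus 157 hairpins gave 146 ratios in shNC day 0, and 163 gave 151 in shPerk day 3. A large ratio needs an abundant arm and miR-21a was chosen for one, so its place is a description. Among hairpins with a ratio, 4 had a larger one in shNC day 0, shPerk day 0, shNC day 3 and vector, and 2 in shPerk day 3 and ATF4. In shPerk day 3 these were let-7g at 13.90 and miR-467b at 13.70, and with ATF4 let-7g at 12.49 and miR-99a at 12.36, all with the 5p arm higher and all named after their values were seen.

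Between shPerk and shNC on day 3, the log2 arm ratio of miR-21a was higher by 1.40 (interval 1.16 to 1.63), a 2.63-fold larger ratio. The change was past the limit of 1, and so was that of 27 of the 82 hairpins compared, or 32.9%, of which 10 changed more than miR-21a. On day 0 the same comparison gave 0.08 (−0.05 to 0.22), within counting error, with 8.33% of 96 hairpins beyond 1 and 81 that changed more.

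From day 0 to day 3 the log2 arm ratio of miR-21a was higher by 1.80 in shPerk cells (1.57 to 2.03), a 3.48-fold larger ratio. Of 83 hairpins, 16.9% changed by more than 1, and 2 changed more than miR-21a, namely miR-182 by 2.18 and miR-148a by −2.10 (named after their values were seen). In shNC cells the difference between the days was 0.48 (0.34 to 0.63), below the limit, with 9.78% of 92 hairpins beyond 1 and 33 that changed more. The comparisons share libraries and are not independent of each other. The difference between ATF4 and vector was 0.90, also below the limit, with 3.23% of 93 hairpins beyond 1. The 3 that changed more there were miR-32 by 1.45, miR-466b by −1.18 and miR-466c by −1.01 (also named after their values were seen).

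The median change of the log2 ratio of major over minor arm, over all hairpins, was 0.10 between shPerk and shNC on day 3 and 0.00 on day 0. It was 0.26 from day 0 to day 3 in shNC cells, 0.25 in shPerk cells and 0.11 for ATF4 over vector. These medians had the sign of the change of miR-21a and were smaller in each of the 4 comparisons of day 3 or ATF4. Reads of the major arm are the larger of the pair by definition.

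**Figure D3:**
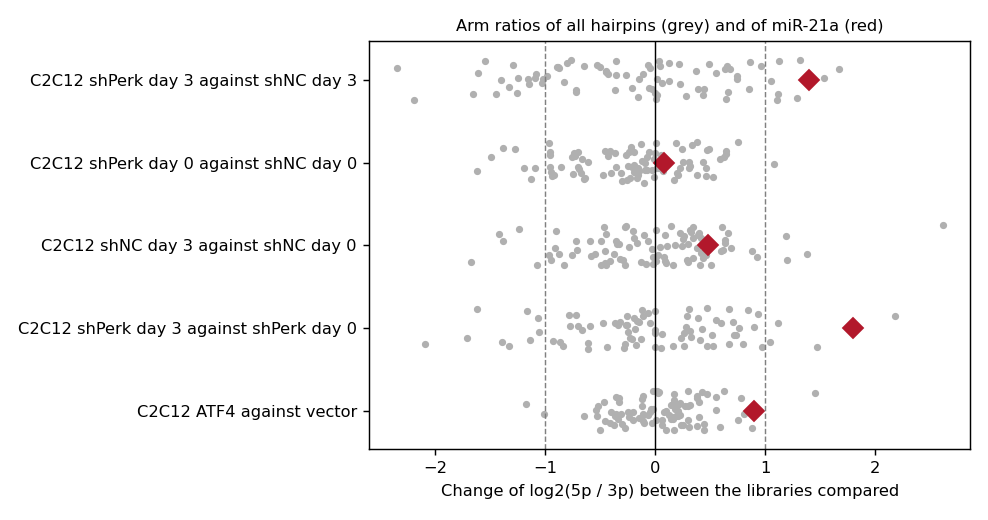
Change of the log2 ratio of 5p to 3p between the libraries compared (x axis), for each hairpin (grey points, spread vertically for legibility) and for miR-21a (red diamonds). Dashed lines mark a change of 1. miR-21a lies past the line in both comparisons with shPerk day 3, at 1.40 and 1.80.

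The guide arm was not called changed in any of the 6 comparisons, where called means a log2 fold change beyond 1 after scaling with TMM factors, which set the bulk of miRNAs level between a pair of libraries. Between shPerk and shNC on day 3 its log2 fold change was 0.56, with counting error below 0.01. In that comparison 44.9% of 575 miRNAs were called, and 68.8% had a lower value than miR-21a-5p. On day 0 the log2 fold change was −0.11, with 35.9% of 602 miRNAs called. From day 0 to day 3 it was −0.28 in shNC cells, with 29% of 593 called, and 0.29 in shPerk cells, with 33.9% of 573 called. ATF4 against vector gave −0.04, with 23.6% of 605 called. In P19 cells shPerk against shNC gave 0.51, with 35.5% of 696 called. In the comparisons after the first, 48.3%, 40.4%, 64.5%, 49.3% and 69.2% of miRNAs had a lower value than miR-21a-5p, in the order given.

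The passenger arm was called lower in 1 of the 5 comparisons in which it was listed. From day 0 to day 3 in shPerk cells the reads went from 675 down to 199, with a value of −1.50 on the log2 scale (−1.74 to −1.27), and 8.92% of miRNAs had a lower value, beside 33.9% called in either direction. In shNC cells the days gave −0.76 (−0.91 to −0.61). Between shPerk and shNC it was −0.83 (−1.07 to −0.60) on day 3 and −0.20 (−0.34 to −0.06) on day 0. ATF4 against vector gave −0.94, with 10.8% of miRNAs lower. The passenger arm had a negative value in all 5 comparisons, while the guide arm had values of either sign.

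The knockdown differences of the 2 days were also compared with each other. The log2 fold change of shPerk over shNC was larger on day 3 than on day 0 by 0.68 for the guide arm (0.67 to 0.68), and smaller by 0.63 for the passenger arm (−0.91 to −0.36 as day 3 minus day 0). The arms thus moved apart, by more than counting error, with 1 library per condition. The size of each difference depends on the scaling, since each pair of libraries had its own TMM factors. With total scaling the guide arm had −0.25 on day 0 and 0.23 on day 3, and the passenger arm −0.33 and −1.17.

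The direction of the guide arm depended on the scaling in 2 comparisons. With libraries scaled to the total of all miRNA reads, miR-21a-5p went from 0.29 to −0.06 for day 3 against day 0 in shPerk cells and from 0.51 to −0.08 for shPerk against shNC in P19 cells. In the other 4 comparisons the sign was the same under TMM and total scaling, with total values of 0.23 (shPerk against shNC, day 3), −0.25 (day 0), −0.54 (shNC, day 3 against day 0) and −0.10 (ATF4). For the passenger arm, total scaling gave −1.17, −0.33, −1.03, −1.86 and −1.0, in the order shPerk against shNC on day 3 and day 0, day 3 against day 0 in shNC and shPerk cells, and ATF4 against vector. It then passed the limit in 3 comparisons, with ATF4 just inside it. TMM moved all log2 fold changes by 0.33, 0.13, 0.27, 0.36 and 0.06 relative to total scaling in that order, and by 0.59 in P19 cells.

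**Figure D4:**
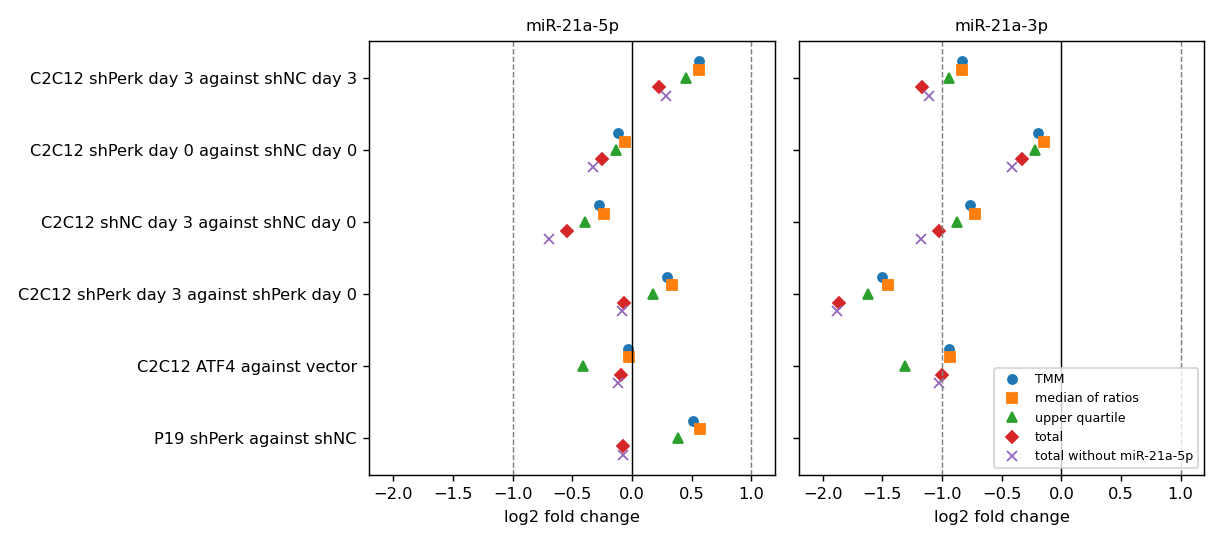
Log2 fold change of miR-21a-5p (left) and miR-21a-3p (right) in each comparison under 5 scalings, with dashed lines at −1 and 1. The sign of miR-21a-5p differs between TMM (0.29 and 0.51) and total scaling (−0.06 and −0.08) for shPerk day 3 against day 0 and for P19, while miR-21a-3p stays negative.

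A miRNA that takes a large share of a fixed total moves the values of the others when that share changes. The share of miR-21a-5p was 3.13 percentage points higher in shPerk than in shNC on day 3 and differed by −4.14 points on day 0. It differed by −8.24 points from day 0 to day 3 in shNC cells, by −0.965 points in shPerk cells, by −1.35 points for ATF4 and by −0.0278 points in P19 cells. By size in points, its change had rank 1 in shPerk against shNC on day 0 and in shNC cells from day 0 to day 3. In shPerk against shNC on day 3 it had rank 3, behind miR-26a-5p (4.71 points) and miR-206-3p (−4.61 points). It had rank 10 in shPerk cells from day 0 to day 3, rank 4 for ATF4 and rank 151 in P19 cells. Changes in points follow abundance, by which miR-21a-5p was chosen, so these ranks are a description. In the differentiating shNC cells the 4 muscle miRNAs gained 6.93 points from day 0 to day 3.

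Leaving miR-21a-5p out of the total shifted every other miRNA by 0.06 (log2) in shPerk against shNC on day 3 and by −0.08 on day 0. The shift was −0.15 from day 0 to day 3 in shNC cells, −0.02 in shPerk cells and −0.02 for ATF4, and −0.000402 in P19 cells. It altered the calls of 15, 18, 38, 3, 6 and 0 other miRNAs in that order. In shNC cells, day 3 against day 0, total scaling called 51 of the 592 other miRNAs higher and 140 lower, and without miR-21a-5p in the total 42 higher and 169 lower. TMM called 74 higher and 98 lower there, with or without miR-21a-5p. TMM factors computed without miR-21a-5p altered 0 calls in the first 3 comparisons, 4 in shPerk cells from day 0 to day 3, 1 for ATF4 and 1 in P19 cells. The share of miR-21a-5p thus moved calls under total scaling more than under TMM in each comparison except shPerk day 3 against day 0 and P19.

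**Figure D5:**
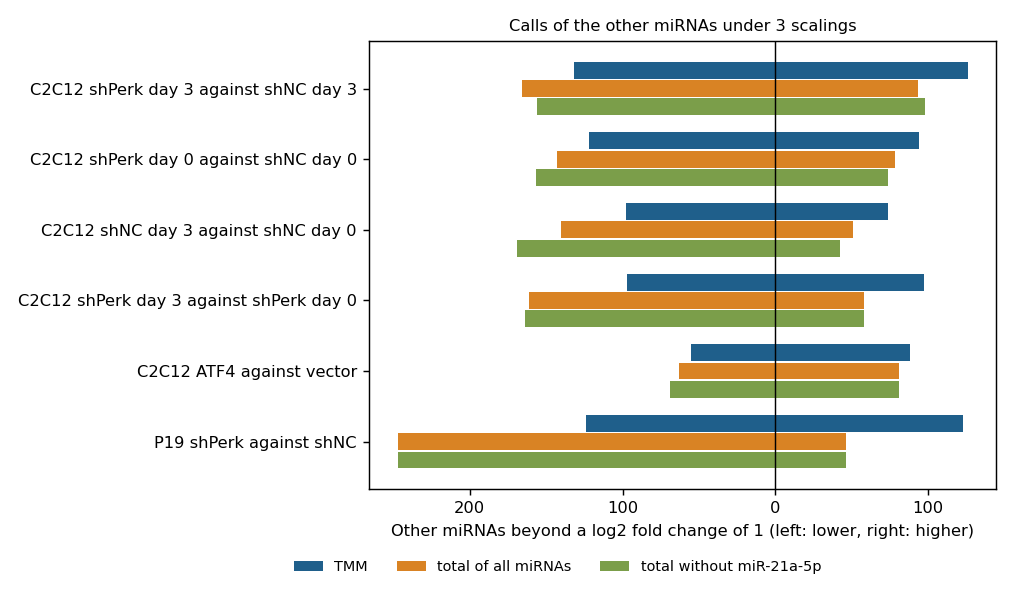
Number of other miRNAs beyond a log2 fold change of 1 (x axis, lower to the left and higher to the right) in each comparison under TMM, total scaling and total scaling without miR-21a-5p. In shNC cells, day 3 against day 0, the lower calls number 98, 140 and 169 under these scalings.

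Among 6 miRNAs known to be activated by AP-1 or STAT3, miR-21a-5p included, 1 was called higher in shPerk than in shNC on day 3 and 0 lower, beside 44.9% of all miRNAs called in either direction. Their median was 0.37 on the log2 scale, beside 0.01 over all miRNAs. This was miR-146b-5p, a miRNA induced in inflammatory signaling, with 4755 reads in shNC and 19291 in shPerk (log2 fold change 2.70). On day 0, 4 of the 6 were called higher and 0 lower, beside 35.9% of all miRNAs called (median 1.11 beside −0.06), with 3.17 for miR-146b-5p, 1.50 for miR-222-3p, 1.15 for miR-181b-5p and 1.07 for miR-221-3p. miR-21a-5p, at −0.11, and miR-155-5p, at −0.19, were not called on day 0. miR-221-3p passed the limit only with the TMM shift of 0.13. From day 0 to day 3, 0 of 6 were called in shNC cells (median 0.47 beside −0.04, 29% of all called), and 2 were called lower in shPerk cells (median 0.29 beside −0.05, 33.9% called), miR-222-3p by −1.43 and miR-221-3p by −1.39. These are miRNAs of 1 cluster that are known to promote proliferation. ATF4 against vector called 1 higher (miR-146b-5p, 1.10, with a median of 0.27 beside −0.01 and 23.6% of all called). P19 shPerk against shNC called 1 higher (miR-146b-5p, 1.23, with a median of −0.07 beside −0.06 and 35.5% called). The P19 rise, from 313 to 486 RPM, was within the limit before the TMM shift of 0.59.

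The 4 miRNAs of SMAD-assisted processing were both arms of miR-21a and both arms of miR-199a. Of these, 0 were called in shPerk against shNC on day 3 (median 0.01 beside 0.01 over all miRNAs, 44.9% called) or day 0 (0.02 beside −0.06, 35.9%), in shNC cells from day 0 to day 3 (−0.08 beside −0.04, 29%) or with ATF4 (0.10 beside −0.01, 23.6%). In shPerk cells from day 0 to day 3, 1 was called lower, miR-21a-3p (0.02 beside −0.05, 33.9%). miR-199a-5p, the other 5p arm, lay between 0.05 and 0.23 in the C2C12 comparisons. miR-199a-3p, whose reads are listed under miR-199b-3p as well and are therefore uncertain, ran from −0.18 to 0.84. In P19 cells both arms of miR-199a were called higher, at 1.34 and 1.30, from 9.60 to 16.2 RPM and from 75.0 to 123 RPM, and miR-21a-5p was not (median of the 3 listed 1.30 beside −0.06, with 35.5% of all called). Both rises in RPM alone were within the limit of 1, and TMM added 0.59 in P19 cells, so these calls depend on the scaling.

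Of the miRNAs that share the stem name, miR-21b was called higher in shPerk day 3 against shNC day 3 (1.06, beside 44.9% of all miRNAs called) and against shPerk day 0 (1.05, beside 33.9%). Its levels were 14.0 CPM in shNC day 3, 14.3 in shPerk day 0 and 23.1 in shPerk day 3, rises within the limit before the TMM shifts. ATF4 over vector gave −0.73 for it. miR-21c, which shares the seed of the guide arm, had 0.77, 0.71, 0.65 and 0.61 in the comparisons of the count libraries and −0.95 for ATF4, from at most 65 reads. The 4 muscle miRNAs, miR-1a-3p, miR-133a-3p, miR-133b-3p and miR-206-3p, were all called higher on day 3 in shNC cells (median 2.76, beside 29% of all miRNAs called) and in shPerk cells (2.64, beside 33.9%). In shPerk against shNC, 4 were called lower on day 3 (−2.88, beside 44.9%) and 3 on day 0 (−2.62, beside 35.9%). ATF4 called 2 of the 4 higher (0.88, beside 23.6%), and P19 shPerk called the 3 that were listed higher (1.67, beside 35.5%). Of the P19 calls, miR-133b-3p went from 1.14 to 1.79 RPM, near the lowest values listed, and passed the limit only with the TMM shift of 0.59. The log2 fold change of miR-21a-5p stayed below 0.6 in size in each of these comparisons.

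The miRNAs whose log2 level in CPM or RPM was most alike over the 6 C2C12 libraries are given as a description, since the libraries share a cell line and some share a table. For miR-21a-5p the 3 highest Pearson correlations, of 191 miRNAs that averaged 100 CPM or RPM or more, were those of miR-30e-3p (0.68), miR-96-5p (0.67) and miR-744-5p (0.66). None was close to 1. For miR-21a-3p the 3 highest, of 192, were those of miR-16-1-3p (0.97), miR-361-5p (0.92) and miR-18a-5p (0.89). miR-16-1-3p is also a passenger arm, and ran from 224 CPM in shNC day 0 to 49.7 in shPerk day 3. miR-18a-5p, of the oncogenic miR-17 cluster known for its role in proliferation, ran from 221 to 16.5 CPM between the same libraries.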

How the data were processed

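Linkers were ligated to both RNA ends before reverse transcription, PCR and size selection, and reads were aligned with bowtie to the genome and to known RNAs. Ligation captures sequences with unequal efficiency, so shares are shares of reads, not of molecules. The effect of this was not tested. The processing notes name GRCm38 and mm10, while the miRNA release, the bowtie version and the treatment of reads shared between miRNAs are not given in the sources used here. The authors deposited raw read counts per mature miRNA for the 4 C2C12 hairpin libraries (3 tables). For the ATF4 and P19 pairs the authors deposited RPM values (2 tables), in which nothing lies between 0 and 1 RPM. Each table also holds the log2 fold changes, p-values and, for RPM, q-values deposited by the authors from their own comparisons, which were not used.

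From these values shares, ranks, arm ratios and log2 fold changes were computed with Python 3.11.15 (pandas 2.3.3, numpy 2.4.6, scipy 1.17.1, matplotlib 3.10.9). TMM factors came from edgeR 4.0.16 in R 4.3.3. miRNAs with at least 1 CPM or RPM in at least 1 library of a pair were kept, with a prior count of 0.125. RPM values at 0 were set to 1 RPM and TMM was applied to them as deposited. With 1 library per group no pair of libraries can be tested, so calls rest on a log2 fold change beyond 1. As an alternative added after the data were seen, edgeR's quasi-likelihood test was fitted to the 4 count libraries with hairpin and day as additive terms, with Benjamini-Hochberg adjustment. Intervals of shares, levels, arm ratios and log2 fold changes are exact 95% binomial (Clopper-Pearson) intervals on reads. Those of the changes of arm ratios and of the difference between the knockdown values of the 2 days are 95% normal approximations from the reads. All cover counting error only, since PCR reads without molecular identifiers are not independent molecules. Arm ratios were compared for hairpins where each arm averaged 10 CPM or RPM or more over the pair of libraries. The calculation was tested on simulated data. The members and the lists were chosen with earlier results of these data known. miRNAs named are the members, the most abundant other miRNA of each library, members of the lists and marker sets, and the 3 miRNAs most alike to each member. Also named are hairpins with a larger arm ratio, or a larger change of it, than miR-21a, and miR-199b-3p for its identical values. Sequences are from RefSeq and gene positions from GENCODE. Alternatives were other scalings (total, total without miR-21a-5p, TMM without miR-21a-5p, median of ratios, upper quartile), filters and denominators.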

Additional observations from a re-analysis of the deposited data

Results flagged for a closer look

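The log2 fold change of miR-21a-5p for shPerk over shNC had opposite signs in different settings, at −0.11 in C2C12 cells on day 0, 0.56 on day 3 and 0.51 in P19 cells. These results are listed because the first had the opposite sign to the others, with 1 library pair each. The difference between the C2C12 days was compared with counting error only. No difference was tested between conditions, since no group has a second library. The log2 fold change of miR-21a-5p for day 3 over day 0 was likewise −0.28 in shNC cells and 0.29 in shPerk cells, which was not tested either. The values 0.51 and 0.29 had the opposite sign under scaling to the total of all miRNAs.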

How the results depend on the processing

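Leaving out a replicate was not possible, since no group has a second library. In the additive fit of hairpin and day to the 4 count libraries, added after the data were seen, day serves as the block for the hairpins, 1 residual degree of freedom is left and any effect of the hairpin that differs between days counts as error. edgeR's quasi-likelihood test gave shPerk over shNC as 0.21 for miR-21a-5p (adjusted p = 0.658) and −0.53 for miR-21a-3p (adjusted p = 0.404), and day 3 over day 0 as 0.05 (adjusted p = 0.943) and −1.09 (unadjusted p = 0.0387, adjusted p = 0.249). Of 625 miRNAs, 67 passed an adjusted p of 0.05 for the hairpin and 0 for the day (193 and 119 unadjusted). Depth limits miR-21a-3p, which rests on 199 to 1093 reads in the count libraries, and the depth of the RPM libraries is unknown. The cause of the movements below was not tested. Values are log2 fold changes in the order shPerk over shNC on day 3, on day 0, day 3 over day 0 in shNC cells and in shPerk cells, ATF4 over vector and P19 shPerk over shNC.

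For miR-21a-5p, scaling to the total of all miRNAs gave 0.23, −0.25, −0.54, −0.06, −0.10 and −0.08, and the total without miR-21a-5p gave 0.29, −0.33, −0.70, −0.08, −0.12 and −0.08, so that the sign turned for shPerk day 3 over day 0 and for P19 under both. Upper-quartile factors gave 0.45, −0.13, −0.39, 0.18, −0.41 and 0.39. Median-of-ratios factors gave −0.06, −0.24, 0.34, −0.03 and 0.57 from the second comparison on. A filter of at least 10 CPM or RPM gave 0.47, −0.33, −0.41, 0.30, −0.13 and 0.61, and no filter gave 0.50, −0.09, −0.19 and 0.38 for the count libraries. TMM factors without miR-21a-5p gave 0.28 (shPerk day 3 over day 0), −0.02 (ATF4) and 0.53 (P19). No setting put miR-21a-5p past 1.

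For miR-21a-3p, total scaling gave −1.17, −1.03, −1.86 and −1.0 for shPerk over shNC on day 3, the days in shNC and in shPerk cells and ATF4, which takes the first and second of these past the limit. The total without miR-21a-5p gave −1.11, −0.41, −1.18, −1.88 and −1.02 in the 5 comparisons, which takes ATF4 past it too. With a filter of at least 10 CPM or RPM, shPerk over shNC on day 0 gave −0.42 and ATF4 −1.03. ATF4 gave −1.31 with upper-quartile factors, −0.93 with median of ratios and −0.92 with TMM without miR-21a-5p. ATF4 over vector was thus past the limit under 3 of these settings. The other 21 values of miR-21a-3p were negative and close to the reported ones.

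Counts of called miRNAs were 627, 588, 556 and 511 with no filter in the 4 comparisons of count libraries, and 163, 126, 90, 104 and 90 in the C2C12 comparisons at 10 CPM or RPM or more. The other 33 counts were within 1.5 times the reported ones.

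The share of miR-21a-5p without the 4 muscle miRNAs in the denominator was 26.8%, 22.2%, 19.8%, 21.7%, 21.1% and 19.8% in shNC and shPerk day 0, shNC and shPerk day 3, vector and ATF4. In an alternative chosen after seeing the data, miRNAs listed with identical values (17 repeats in the count tables, such as miR-199b-3p) were counted once, and the share was 27.4%, 23.3%, 19.1%, 22.1%, 21.8% and 20.8%, and 0.540% and 0.509% in P19 cells. Adding 0.5 to both arms gave a log2 arm ratio of 11.94 with ATF4 and moved the others by less than their interval or, with vector, by less than 0.01.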
